A study of Mus musculus with 12 samples.

Results

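Lin28a, Lin28b, Hmga2, Igf2bp1, Igf2bp2, Igf2bp3 and Trim71 are genes of early embryos and fetal tissues that are switched off in most adult cells and return in tumors. Their transcripts were followed while mouse P19 cells were differentiated into neuron-like cells. The genes were chosen by name, and a read was counted for a gene when the authors tagged it PASS, classed its transcript as mRNA and assigned it to that gene. All 7 genes had reads, out of 14042 genes with at least 1 read, and all 7 were among the 9309 genes with enough reads (at least 30 over all libraries) to be tested. Together they held 952 reads at D0, 253 at D2, 327 at D4, then 208 at D6.

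LIN28A and LIN28B are RNA-binding proteins that hold back the maturation of let-7, a family of microRNAs that builds up as cells differentiate. A microRNA pairs through its seed, the bases near its 5′ end, with matches in the 3′ untranslated region (3′ UTR) of target mRNAs and represses them. Hmga2, Lin28a, Lin28b, Igf2bp1, Igf2bp2, Igf2bp3 and Trim71 are textbook let-7 targets, so that LIN28 and let-7 oppose each other. HMGA2 is a chromatin protein that bends AT-rich DNA, the IGF2BP proteins bind mRNAs and affect their stability, transport and translation, and TRIM71 (the mammalian LIN-41) is an RNA-binding ubiquitin ligase of stem cells.

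P19 is a mouse embryonal carcinoma line, here with the WT genotype, and all libraries came from this 1 line. Cells of D0 were kept in DMEM with fetal bovine serum and had not been induced. Cells of D2, D4 and D6 had spent that many days on poly-L-lysine in NDiff 227 medium with 500 nM retinoic acid, renewed daily, so the time, the change of medium and retinoic acid cannot be told apart. Poly(A) RNA of 3 replicates per day (12 libraries) was read as native RNA on nanopores, which gives 1 read per molecule, counted from its 3′ end, together with the length of its poly(A) tail.

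Levels are given as scaled CPM, that is reads of a gene per 1000000 reads of the library after scaling by the trimmed mean of M-values (TMM). A read stands for 1 molecule whatever the length of the transcript, so levels of different genes were compared without division by length. Kept reads per library ran from 120326 (D2 replicate 1) to 613756 (D0 replicate 2), so that at D2, the shallowest day, 1 read weighed most. Libraries were barcoded, and each of the 13 sequencing runs held 1 day, so run and day cannot be told apart. The study's methods call the 3 replicates of a day biological replicates, and p-values measure the spread between these samples. A change was called when its adjusted p from limma-voom, fitted to all 12 libraries and corrected over all 9309 genes, was at most 0.05. Scaling by total reads in place of TMM moved the median gene by 0.24 (log2) upward at D6 against D0, by 0.13 at D4 and by 0.19 at D2, and the share of called genes that rose from 51.7% to 69.0% at D6, from 49.7% to 62.5% at D4 and from 41.5% to 65.9% at D2.

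The marker genes moved with the days of induction. The summed level of the markers of pluripotent cells fell from between 1970 and 2270 at D0 to between 176 and 220 at D6, with Zfp42 and Fgf4 without a read at any day. Sox2, which neural progenitors also express, was at 199 scaled CPM at D6, whereas Pou5f1 went from 1710 to 0.902. Neuronal markers went from between 455 and 525 at D0 to between 118 and 217 at D2 (2 of 8 called lower). At D6 they were between 2230 and 2390 (8 of 8 called higher). Neural progenitor markers summed to between 56.7 and 94.5 at D0, 431 and 582 at D2, and 677 and 787 at D4. At D6 their sum was between 945 and 1160, with 6 of 6 called higher. Nes, Sox1 and Pax6 had their highest means at D2 (100, 83.3 and 119, against 60.6, 29.4 and 83.0 at D6). Hes5 was highest at D4, and Fabp7 (557) and Notch1 at D6. Of the glial markers Olig1, S100b and Aqp4 had no reads, and mesoderm and endoderm markers stayed at or below 16.1 in every library. In bulk RNA, fewer cells of a type and less RNA of a gene per cell cannot be told apart, and this holds for each change below.

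The sequences that tie the genes together are those of the let-7 family and of its matches. In the RefSeq set for GRCm38.p6, 9 mature let-7 and miR-98 sequences share 1 seed, and miR-125a and miR-125b, which are classical regulators of Lin28a, share another. let-7a, let-7g, miR-98 and miR-125b are shown 5′ to 3′ with the seed (bases 2 to 8) in capitals.
mmu-let-7a-5p: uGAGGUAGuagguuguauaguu
mmu-let-7g-5p: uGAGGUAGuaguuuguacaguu
mmu-miR-98-5p: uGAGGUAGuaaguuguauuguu
mmu-miR-125b-5p: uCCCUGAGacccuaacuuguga

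The genes lie on mm10 at chr4:134003330-134018841 (Lin28a), chr10:45376620-45470201 (Lin28b), chr10:120361275-120476469 (Hmga2), chr11:95957163-96005940 (Igf2bp1), chr16:22059009-22163299 (Igf2bp2), chr6:49085223-49214957 (Igf2bp3) and chr9:114507133-114564369 (Trim71), all on the minus strand. The annotated 3′ UTR of the most-read coding transcript of each gene (GENCODE vM21 sequences on GRCm38, the mm10 build of the files) was searched on its sense strand for CTACCTC, the perfect match to the let-7 seed, and for CTCAGGG, the match to the miR-125 seed. Every one of the 7 genes held at least 1 let-7 match, against 9.85% of the 9224 3′ UTRs of tested genes, whose median length was 1112 nt. Lin28b, Hmga2, Igf2bp1 and Trim71 held 4 matches each, Lin28a held 2, and Igf2bp2 and Igf2bp3 held 1. The 3′ UTRs of these genes were long, from 1784 nt for Igf2bp2 to 6337 nt for Igf2bp1, and a long UTR holds more matches. Among 3′ UTRs at least as long, cut to the length of the gene's own, 0.136% held as many matches as Hmga2, 0.55% as many as Lin28b, 0.571% as many as Igf2bp1, 0.733% as many as Trim71 and 2.15% as many as Lin28a. The single match of Igf2bp2 and of Igf2bp3 was common, with 10.3% and 12% of 3′ UTRs of those lengths holding 1 or more. These shares include the gene itself, and these genes are known as let-7 targets partly for such matches, so the counts describe the sequences and were not tested.

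The 30-base windows of the first let-7 match of each gene are shown 5′ to 3′ on the mRNA, with the matched bases in capitals, because they are the sequence that the 7 genes have in common.
Lin28a, chr4:134005187-134005216, minus strand: ggagtgcacagcctgttgaaCTACCTCatt
Lin28b, chr10:45381020-45381049, minus strand: ccttcacccgggcgggaagtCTACCTCatg
Hmga2, chr10:120364222-120364251, minus strand: ggggcgccgacattcaatttCTACCTCagc
Igf2bp1, chr11:95961776-95961805, minus strand: gcagtgctgtgcgaagtaaaCTACCTCaag
Igf2bp2, chr16:22059471-22059500, minus strand: gaaaaacacacaaataaaagCTACCTCagg
Igf2bp3, chr6:49086785-49086814, minus strand: aaacgtgcatttttactcaaCTACCTCagg
Trim71, chr9:114512470-114512499, minus strand: agtacaacattgcctaagtcCTACCTCagc

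In these 7 windows the match is followed by an A, the base that faces the first base of the microRNA and strengthens such sites. Over all 20 let-7 matches 13 are, and the later 3 matches of Lin28b, the later 3 of Hmga2 and match 4 of Igf2bp1 are not. The matches began 909 nt after the stop codon in Lin28a, 36 nt in Lin28b, 21 nt in Hmga2, 166 nt in Trim71, 548 nt in Igf2bp3, 1313 nt in Igf2bp2 and 1715 nt in Igf2bp1. CTCAGGG was found once in Lin28a, Lin28b, Igf2bp3 and Trim71, and in none of the other 3 genes, against 15.0% of all 3′ UTRs with at least 1. Among 3′ UTRs cut to the same length, 23.7% held 1 or more for Lin28a, 32.1% for Lin28b, 20.2% for Igf2bp3 and 37.0% for Trim71, so that a single match was common at these lengths. The window of Lin28a, 797 nt after the stop codon, is shown with the match in capitals.
Lin28a, chr4:134005299-134005328, minus strand: ttctcaggtacatgagcaatCTCAGGGata
The let-7 and miR-125 matches of a gene did not overlap. Mature microRNAs carry no poly(A) tail and were not measured, so that a match is a description of the sequence and not a measured site.

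**Figure D1:**
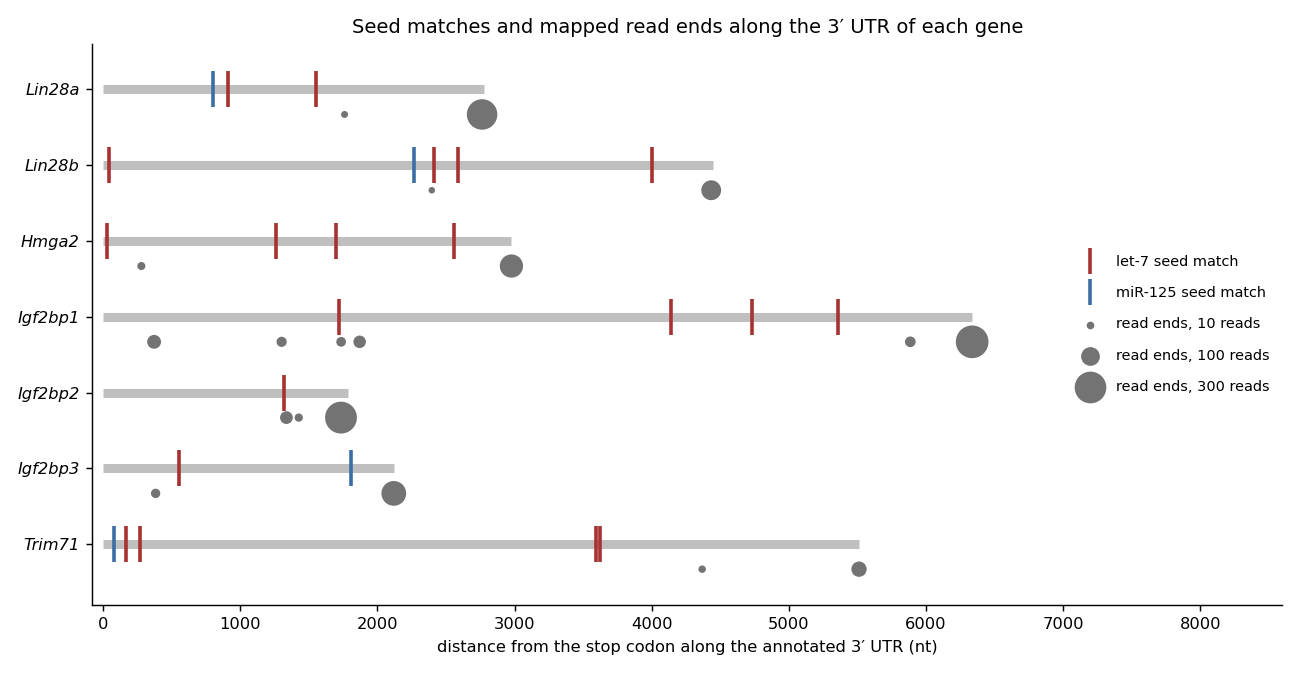
Position of let-7 seed matches (red) and miR-125 seed matches (blue) along the annotated 3′ UTR of each gene (grey bar), in nt from the stop codon, with the sites where at least 5 reads ended drawn as dots whose area grows with the number of reads. Most reads end at the far right of each bar, past the matches, and Igf2bp1 has further end sites in the first 1870 nt.

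The 7 genes had a lower summed level at each later day. The summed level of all 7 was 659 ± 55.6 scaled CPM at D0 (SD, n = 3), 430 ± 83.0 at D2, 292 ± 23.3 at D4, then 189 ± 14.1 at D6, that is 28.7% of D0. At D6 against D0, 6 of the 7 genes were called lower and none higher, whereas 18.2% of all tested genes were called lower and 19.4% higher. At D4 against D0, 5 of 7 were called lower (12.7% of all genes, with 12.6% higher), and at D2 against D0, 2 of 7 (6.32% of all genes, with 4.48% higher). The median log2 fold change of the 7 genes was -0.32 at D2, -1.03 at D4, then -1.49 at D6, beside medians over all genes of -0.05, -0.0 and 0.02. The 3 comparisons share the D0 libraries and are not independent of each other.

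**Figure D2:**
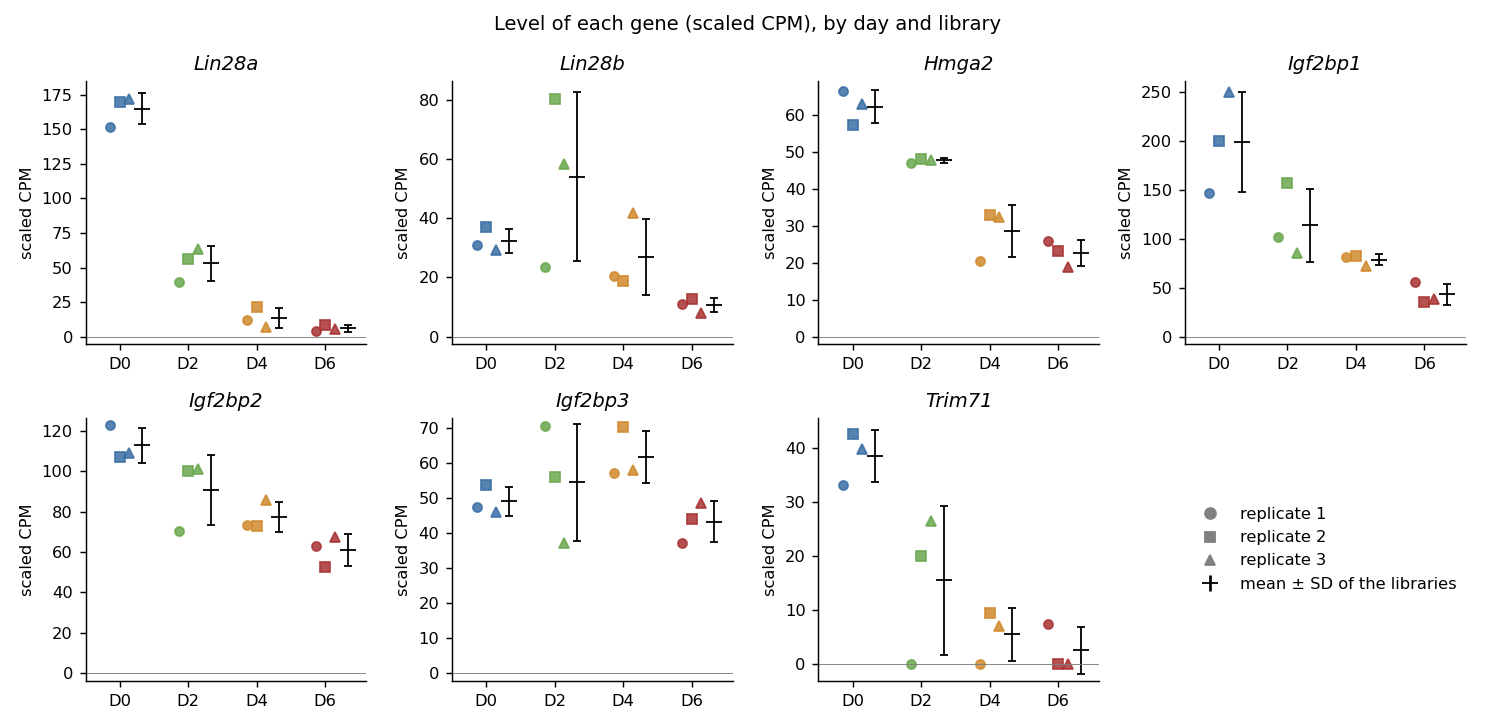
Level of each gene in scaled CPM (vertical axis, own range in each panel) in every library of D0, D2, D4 and D6, with the mean ± SD of the 3 libraries of a day beside them. Lin28a falls from between 152 and 172 at D0 to between 3.71 and 8.39 at D6, whereas Igf2bp3 stays between 37.1 and 70.6 in every library.

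Lin28a, the form that marks embryonic stem cells, had the lowest fitted fold change of the 7 genes at each day, and its difference from Trim71 was not tested. The 3 libraries of D0 held 64, 92 and 82 reads, those of D2 held 5, 14 and 12, those of D4 held 3, 9 and 3, and those of D6 held 1, 4 and 2. These correspond to levels of 165 ± 11.4 scaled CPM at D0, 53.0 ± 12.6 at D2, 13.4 ± 7.14 at D4, then 5.84 ± 2.37 at D6 (SD, n = 3 each). The libraries of D2, D4 and D6 all lay below those of D0, as in 18.3%, 20% and 22.9% of all genes tested at those days. The log2 fold change against D0 was -1.55 ± 0.28 (SE) at D2 (adjusted p = 3.68e-05), -3.61 ± 0.38 at D4 (adjusted p = 1.07e-11) and -4.50 ± 0.49 at D6 (adjusted p = 1.23e-11). The fall continued between D2 and D4 (log2 fold change -2.06 ± 0.45, adjusted p = 0.00191, where 1.02% of all genes were called lower), a call that was lost in libraries thinned to the smallest (-1.52, adjusted p = 0.289), and the further step from D4 to D6 did not pass (-0.89 ± 0.60, adjusted p = 0.404). Pooled over the 3 libraries, the 7 reads of D6 put Lin28a at 3.79% of its D0 level, with an exact 95% interval of 1.51% to 7.93% that covers counting error only. At D0 Lin28a stood among the top 10.1% of tested genes, and at D6 95.9% of tested genes had a level at or above it.

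Lin28b, the relative of Lin28a that is widespread in fetal tissues and in tumors, took another course. The D0 libraries held 13, 20 and 14 reads and those of D2 held 3, 20 and 11, which at the lower depth of D2 is a level of 54.1 ± 28.6 scaled CPM against 32.4 ± 4.08 at D0. D2 replicate 1, at 23.5, lay below the D0 libraries and the other two, at 80.3 and 58.4, above them. The difference of D2 did not pass (log2 fold change 0.79 ± 0.35, adjusted p = 0.154). Without D2 replicate 1, which holds 3 Lin28b reads and is the shallowest library, it was 1.06 with an adjusted p of 0.0335, and the change from D2 to D4 went from -1.07 (adjusted p = 0.129) to -1.34 (adjusted p = 0.0307). This 1 library decides the call at D2. The change from D2 to D4 was also called with all 12 libraries when reads of all quality tags were kept (-1.21, adjusted p = 0.0326). The level was 27.0 ± 12.8 at D4, where the replicates spread from 18.8 to 41.7 (log2 fold change -0.28 ± 0.35, adjusted p = 0.605). At D6 the libraries held 3, 6 and 3 reads, a level of 10.6 ± 2.28 that lay below every D0 library, and Lin28b was called lower (-1.49 ± 0.46, adjusted p = 0.00729). With every library thinned to the size of the smallest, the D6 change of Lin28b was -0.24 and not called (adjusted p = 0.876).

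The ratio within a library does not depend on the scaling. Lin28b made up 16.9%, 17.9% and 14.6% of the reads of the 2 Lin28 genes in the D0 libraries, 37.5%, 58.8% and 47.8% at D2, 62.5%, 47.1% and 85.7% at D4, and 75%, 60% and 60% at D6. Every later library was above every D0 library. Lin28a outnumbered Lin28b in reads at D0, and both had like numbers of reads at D2, where Lin28b held 34 of 65 (52.3%, exact binomial 95% interval 39.5% to 64.9%). For D2, D4 and D6 against D0 the exact permutation test (two-sided) gave p = 0.1, the smallest p that 3 against 3 libraries allow.

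Trim71 was nearly without reads by D6. The D0 libraries held 14, 23 and 19 reads, those of D2 held 0, 5 and 5, those of D4 held 0, 4 and 3, and those of D6 held 2, 0 and 0. All later libraries lay below those of D0, whose level was 38.6 ± 4.85 scaled CPM, while that of D4 was 5.44 ± 4.87. Trim71 was not called at D2 (log2 fold change -1.36 ± 0.56, adjusted p = 0.112), and was called lower at D4 (-2.67 ± 0.60, adjusted p = 3.62e-04) and at D6 (-4.08 ± 0.70, adjusted p = 2.83e-06). Without D2 replicate 1, which had no read, the D2 value was -0.71 (adjusted p = 0.424), and without D6 replicate 1, which held both reads of D6, the D6 value was -5.06. Over all alternatives run the D2 value lay between -1.84 and -0.71, that of D4 between -3.16 and -2.11 and that of D6 between -5.06 and -3.55, with adjusted p of at most 0.0135 at D4 and 6.86e-04 at D6. With 2 reads in all at D6 the fitted value depends on the pseudocount of 0.5 reads, and the pooled reads put Trim71 at 4.6% of D0 with an exact 95% interval of 0.544% to 17.4%. A library with 0 reads allows up to 3, so absence of Trim71 from a library is not shown at this depth.

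Hmga2 fell gradually. Its libraries held 28, 31 and 30 reads at D0, 6, 12 and 9 at D2, 5, 14 and 14 at D4, and 7, 11 and 7 at D6. The level was 62.3 ± 4.51 scaled CPM at D0, 47.7 ± 0.572 at D2, 28.6 ± 7.07 at D4, then 22.7 ± 3.53 at D6, and no later library reached the lowest of D0 (57.4). The change was not called at D2 (log2 fold change -0.32 ± 0.31, adjusted p = 0.589) and was called at D4 (-1.03 ± 0.29, adjusted p = 0.00570) and D6 (-1.41 ± 0.31, adjusted p = 2.10e-04). In thinned libraries the call at D4 was lost (-0.72, adjusted p = 0.343). The steps from D2 to D4 (-0.71 ± 0.36, adjusted p = 0.329) and from D4 to D6 (-0.39 ± 0.37, adjusted p = 0.591) were not called. Reads of Hmga2 lay on 2 annotated coding transcripts with the same 3′ end, with 97 and 77 reads. These overlap, and 89.7% of the reads had a mapping quality below 10, a low confidence in the placement. Whether those reads also matched other genes was not tested. Tested apart among 12356 transcripts, both fell at D6, by 1.32 ± 0.44 (adjusted p = 0.0196) and by 1.46 ± 0.51 (adjusted p = 0.0269) on the log2 scale.

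Of the 3 Igf2bp genes, 2 were called lower at D6. Igf2bp1, which was discovered as the zipcode-binding protein of Actb mRNA and as a stabilizer of Myc mRNA, had the highest mean level of the 7 genes at D0, with 62, 108 and 119 reads. Its level was 199 ± 51.4 scaled CPM at D0, 114 ± 37.4 at D2, 78.5 ± 5.74 at D4, then 43.1 ± 11.0 at D6. D2 overlapped with D0, since D2 replicate 2 (157) lay above D0 replicate 1 (147), and D4 and D6 did not. Igf2bp1 had fallen by D2 (log2 fold change -0.74 ± 0.23, adjusted p = 0.0249), and was called lower at D4 (-1.31 ± 0.21, adjusted p = 8.75e-07) and at D6 (-2.23 ± 0.25, adjusted p = 5.75e-11). It was the 1 gene of the 7 that was also called between D4 and D6 (-0.92 ± 0.29, adjusted p = 0.0322), where 3.92% of all genes were called lower. The call at D2 was lost with total-read scaling (-0.55, adjusted p = 0.108), in thinned libraries (-0.66, adjusted p = 0.20) and without D0 replicate 3 (-0.55, adjusted p = 0.143), D2 replicate 1 (-0.74, adjusted p = 0.0518) or D2 replicate 3 (-0.54, adjusted p = 0.206). The call between D4 and D6 was lost with total-read scaling (-0.80, adjusted p = 0.076), with 3 other filters on genes or reads (-0.70 to -0.92) and without D4 replicate 1, D4 replicate 2, D6 replicate 2 or D6 replicate 3, with adjusted p between 0.0565 and 0.162.

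Igf2bp2, the member of the family that persists longest after birth, was lower by D6. The libraries held 52, 58 and 52 reads at D0, 9, 25 and 19 at D2, 18, 31 and 37 at D4, and 17, 25 and 25 at D6, and the level was 113 ± 8.67 scaled CPM at D0, 90.6 ± 17.4 at D2, 77.3 ± 7.37 at D4, then 61.1 ± 7.82 at D6. No later library reached the lowest of D0 (107). Igf2bp2 was not called at D2 (log2 fold change -0.25 ± 0.24, adjusted p = 0.574), passed narrowly at D4 (-0.52 ± 0.20, adjusted p = 0.0494) and was called lower at D6 (-0.89 ± 0.22, adjusted p = 6.58e-04). The call at D4 was lost without any 1 of 10 of the 12 libraries and under 8 other settings, so that it stands at the threshold. Of its 368 reads 88.0% had a mapping quality below 10, and they lay on 5 overlapping transcripts. Whether they also matched other genes was not tested. On reads with a mapping quality of at least 10 alone the D6 change was -0.39 (adjusted p = 0.72), in thinned libraries it was -0.33 (adjusted p = 0.544), and the D4 change turned to 0.16 (adjusted p = 0.888).

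The coding transcript of Igf2bp2, with 215 reads, was at a log2 fold change of -0.50 ± 0.26 at D6 (adjusted p = 0.15), while a transcript annotated as a retained intron, with 122 reads, fell by 1.42 ± 0.38 (adjusted p = 0.00392). The difference between these values was not tested, and all 122 reads of the second had a mapping quality below 10.

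Igf2bp3, a fetal protein that is widely used as a marker of carcinomas, did not pass in any comparison. Its libraries held 20, 29 and 22 reads at D0, 9, 14 and 7 at D2, 14, 30 and 25 at D4, and 10, 21 and 18 at D6. The level was 49.1 ± 4.05 scaled CPM at D0, 54.6 ± 16.7 at D2, 61.8 ± 7.39 at D4, then 43.3 ± 5.84 at D6. The 3 libraries of D4 lay above those of D0 (57.1 to 70.3 against 46.2 to 53.7), as in 17.8% of all genes, whereas D2 and D6 overlapped with D0. The log2 fold change at D6 was -0.16 ± 0.27 (adjusted p = 0.685), with a 95% interval from its SE of -0.69 to 0.37, beside -2.23 for Igf2bp1. Its sign turned with total-read scaling (0.08, adjusted p = 0.852), and no direction is given for it.

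**Figure D3:**
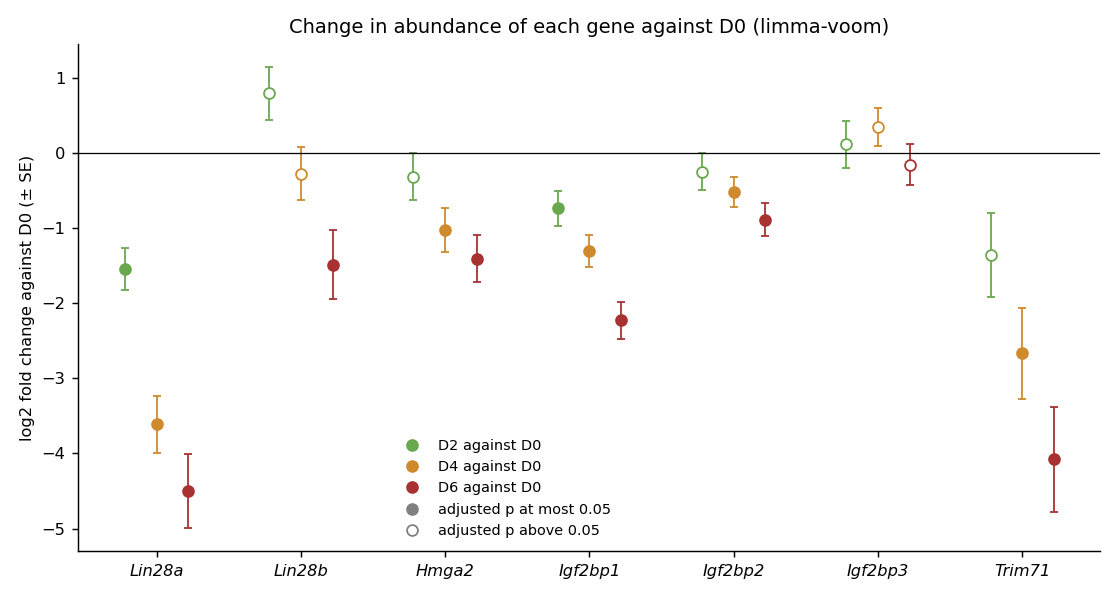
Log2 fold change against D0 with its standard error, for each gene at D2, D4 and D6 (limma-voom over all 12 libraries). Filled points were called at an adjusted p of at most 0.05. Values at D6 run from -4.50 for Lin28a to -0.16 for Igf2bp3, and Lin28b and Igf2bp3 are the genes with values above 0.

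Within the family, Igf2bp1 made up 46.3%, 55.4% and 61.7% of the reads of the 3 genes at D0 and 35.7%, 27.0% and 24.6% at D6. Igf2bp3 made up 14.9%, 14.9% and 11.4% at D0 and 23.8%, 33.3% and 31.6% at D6, and Igf2bp2 went from between 26.9% and 38.8% to between 39.7% and 43.9%. The 3 shares of D6 lay apart from those of D0 for each gene, below for Igf2bp1 and above for the other two (exact permutation test, two-sided, p = 0.1 each, the smallest possible). The order of the levels changed as well. At D0 it was Igf2bp1, Lin28a, Igf2bp2, Hmga2, Igf2bp3, Trim71 and Lin28b, with overlapping libraries between Igf2bp1 and Lin28a and between Trim71 and Lin28b. At D6 it was Igf2bp2, Igf2bp3, Igf2bp1, Hmga2, Lin28b, Lin28a and Trim71, where Igf2bp3 overlapped with Igf2bp1, Lin28b with Lin28a, and Lin28a with Trim71. At D2 Trim71 stood apart from its neighbour in the order, Hmga2, and every other pair of neighbours overlapped.

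**Figure D4:**
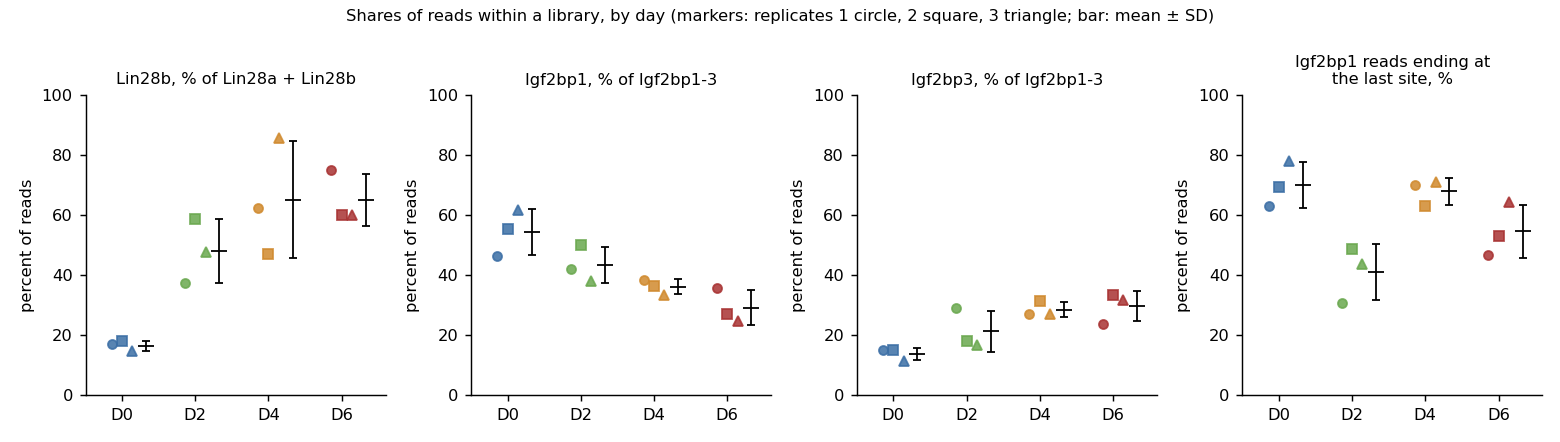
Percent of reads within each library by day: Lin28b among the reads of Lin28a and Lin28b, Igf2bp1 and Igf2bp3 among the reads of the 3 Igf2bp genes, and Igf2bp1 reads that end at its last site. The Lin28b share rises from between 14.6% and 17.9% at D0 to between 60% and 75% at D6, and the last-site share of Igf2bp1 is lowest at D2, between 30.8% and 48.7%.

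Direct RNA reads begin at the poly(A) tail, so the mapped 3′ ends of the reads give where the sequenced molecules ended relative to the seed matches. An end without a nearby polyadenylation signal, or at a run of A in the transcript, is given as a read end and was not tested as a cleavage site. Median aligned lengths were 825 nt for Lin28a, 830 nt for the main transcript of Hmga2, 815 nt for Igf2bp1 and 883 nt for Trim71, and most of the matches lie farther than this from the transcript end, so that an end past a match does not show that the read itself held it. In Lin28a, 278 of 291 reads ended around 1 site 12 nt before the annotated end, with the polyadenylation signal AATAAA in the last 50 nt. Most reads of Lin28b (113), Hmga2 (158), Igf2bp3 (180) and Trim71 (64) likewise ended in a cluster at the annotated end, whose most-used position lay within 11 nt of it, each with AATAAA. Past the last let-7 match ended 97.3% of the reads of Trim71, 98.3% of those of Lin28a and 93.4% of those of the coding transcript of Lin28b. In Hmga2, 100.0% of the reads of the main transcript ended past the first match and 86.6% past the last.

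Igf2bp1 had 6 end sites with at least 5 reads, more than any other of the 7 genes. Of its 489 reads, 320 ended at the annotated end of the 8378-nt transcript, 6337 nt after the stop codon, and 27 ended 451 nt before it. The other sites lay 1870, 1735, 1301 and 371 nt after the stop codon, with 40, 21, 24 and 51 reads. The nearest of these had AATAAA in its last 50 nt, and the other 3 had neither AATAAA nor ATTAAA there. No run of more than 4 A follows any of them, so these ends do not lie at a long A stretch of the transcript itself.

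The share of Igf2bp1 reads that ended at the last site was 62.9%, 69.4% and 78.2% in the D0 libraries, 30.8%, 48.7% and 43.8% at D2, 70.0%, 62.9% and 71.0% at D4, and 46.7%, 52.9% and 64.3% at D6. The 3 libraries of D2 lay below all libraries of D0 and D4, and D6 overlapped with both. Among 4039 tested genes with at least 2 end sites and reads in all 6 libraries, the D2 libraries lay below those of D0 in 8.91% and above them in 4.65%. For Igf2bp1 D2 was 29.1 percentage points below D0 (exact permutation p = 0.1, two-sided, the smallest possible), and D6 was 15.5 points below (exact permutation p = 0.2). Beyond the read ends in the first 1870 nt after the stop codon lie the last 3 let-7 matches of Igf2bp1. Reads that ended past them were 77.9% at D0, 52.9% at D2, 73.3% at D4, then 58.7% at D6, and those that ended past the first match were 86.5%, 75%, 87.2% and 80.4%. The last 3 matches are shown with the matched bases in capitals.
Igf2bp1 match 2, chr11:95959355-95959384, minus strand: ggaaccagcagtgctattaaCTACCTCagc
Igf2bp1 match 3, chr11:95958761-95958790, minus strand: tacgagtataaatggatgaaCTACCTCagt
Igf2bp1 match 4, chr11:95958138-95958167, minus strand: gtttcacttttggttttaatCTACCTCtta

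The mean last-site share was lower at D2 than at D0 in 5 of the other 6 genes as well, and in 55.9% of the 4039 genes, whose median difference was -0.925 percentage points. The difference was -15.3 percentage points for Lin28b (exact permutation p = 0.2), -6.22 for Igf2bp3 and -4.73 for Lin28a (exact permutation p = 0.6 each), and -8.94 for Trim71, which had reads in 2 of the D2 libraries. Hmga2 ended at its last site in 92.1 ± 2.40% of reads at D0 and 81.5 ± 3.21% at D2 (SD, n = 3, exact permutation p = 0.1, the smallest possible), with 27 reads behind the D2 value. Igf2bp2 had 79.7 ± 2.66% at D0 and 88.4 ± 3.92% at D2 (exact permutation p = 0.1), in the opposite direction. Igf2bp3 had 78.7 ± 3.45% at D0 and 91.4 ± 2.95% at D4 (exact permutation p = 0.1), where 7.11% of 4472 genes had all D4 libraries above those of D0. In Igf2bp2 the most-used end, with 304 reads, lay at a run of 37 A in the annotated transcript and had no AATAAA or ATTAAA in its last 50 nt. At such a run the end of the mRNA and the start of the tail cannot be placed exactly, and the tail length of Igf2bp2 may hold encoded A.

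Poly(A) tails are added to nearly all mRNAs and shorten with age, and their length bears on stability and translation. Over all kept reads the D0 libraries had a mean tail of 111 ± 1.79 nt and the D6 libraries of 114 ± 1.41 nt (SD of library means, n = 3). Pooled over days, the tails of Lin28b (154 nt), Hmga2 (143 nt), Trim71 (132 nt), Lin28a (127 nt) and Igf2bp1 (122 nt) were long on average, and those of Igf2bp2 and Igf2bp3 (112 and 113 nt) were near the mean of all reads. Single reads ranged widely, with SDs between 59.7 and 72.5 nt.

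No gene of the 7 was called for a change in mean tail length at any day. A gene was tested at a day when it had at least 5 reads in each of the 6 libraries, which left 5 genes at D2 and D4 and 4 at D6. By the same limma fit weighted by reads, 2.87% of tested genes were called at D2, 2.24% at D4, then 6.37% at D6, and at an unadjusted p under 0.05 there were 0, 0 and 1 of the 7 genes. Leaving out the weights took the call from nearly all other genes too, with 3 genes left at D6 and 0 at D2 and D4.

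Igf2bp2 was the gene at p under 0.05. Its mean tail was 95.6, 104 and 115 nt in the D0 libraries, 86.4, 113 and 102 nt at D2, 143, 85.2 and 120 nt at D4, and 132, 135 and 128 nt at D6. The D6 libraries lay above all of D0, by 26.5 ± 9.44 nt in the weighted fit (SE, limma adjusted p = 0.0917), and the exact permutation test gave p = 0.1. Over all 5491 genes tested the median difference at D6 was 8.16 nt, and the D6 libraries lay above those of D0 in 18.3%.

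Igf2bp1 had tails of 121, 113 and 121 nt at D0, between 102 and 130 nt at D2, 123, 130 and 132 nt at D4, and 132, 121 and 154 nt at D6. The values of D4 and of D6 lay above those of D0 (exact permutation p = 0.1 each), as in 7.26% and 18.3% of the genes tested at those days. The weighted difference at D6 was 16.9 ± 10.4 nt (limma adjusted p = 0.379). The share of Igf2bp1 tails from 30 to 90 nt was 35.3% of 289 reads at D0 and 15.2% of 46 reads at D6, a difference of -20.1 ± 7.43 percentage points (SE) and a limma adjusted p of 0.207 (0.00979 before adjustment).

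Lin28a tails averaged between 117 and 127 nt in the D0 libraries, and the few molecules left at D2 and D4 averaged 117, 145 and 159 nt and 173, 162 and 141 nt. At D4, with 15 reads in all and too few per library for the share of genes given above, the 3 libraries lay above those of D0 (exact permutation p = 0.1, the smallest possible). At D6 the 7 remaining reads had library means of 92.2, 144 and 72.4 nt. The weighted fit could be made for D2 alone and gave 23.3 ± 11.7 nt (limma adjusted p = 0.540). None of the 31, 15 and 7 Lin28a reads of D2, D4 and D6 had a tail under 30 nt, against 4 of 238 (1.68%) at D0, a difference not detectable at these depths.

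Lin28b and Hmga2 had the longest mean tails when all days were pooled, and not at every day. Hmga2 tails averaged 151 ± 12.4 nt at D0, 135 ± 11.1 at D2, 128 ± 4.93 at D4, then 137 ± 31.7 at D6 (SD, n = 3), with limma adjusted p of at least 0.653. The 3 libraries of D4 lay below those of D0 (exact permutation p = 0.1), as in 7.32% of the genes tested. Lin28b tails averaged 166 ± 21.0 nt at D0 and 150 ± 14.4 at D2, 150 ± 40.4 at D4, then 169 ± 30.8 at D6. Neither gene had a read with a tail under 30 nt at any day, in 174 and 124 reads. Igf2bp3 tails were 116 ± 8.44 nt at D0, 96.7 ± 10.5 at D2, 112 ± 7.56 at D4, then 124 ± 15.3 at D6, and Trim71 had too few reads after D0 for a test. None of the 7 genes was called by limma for the share of tails under 30 nt (0.088%, 0.321% and 0.637% of all genes at D2, D4 and D6) or from 30 to 90 nt (3.14%, 2.53% and 2.59%), where Lin28b at D4 and Igf2bp1 at D6 were the 2 at an unadjusted p under 0.05.

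**Figure D5:**
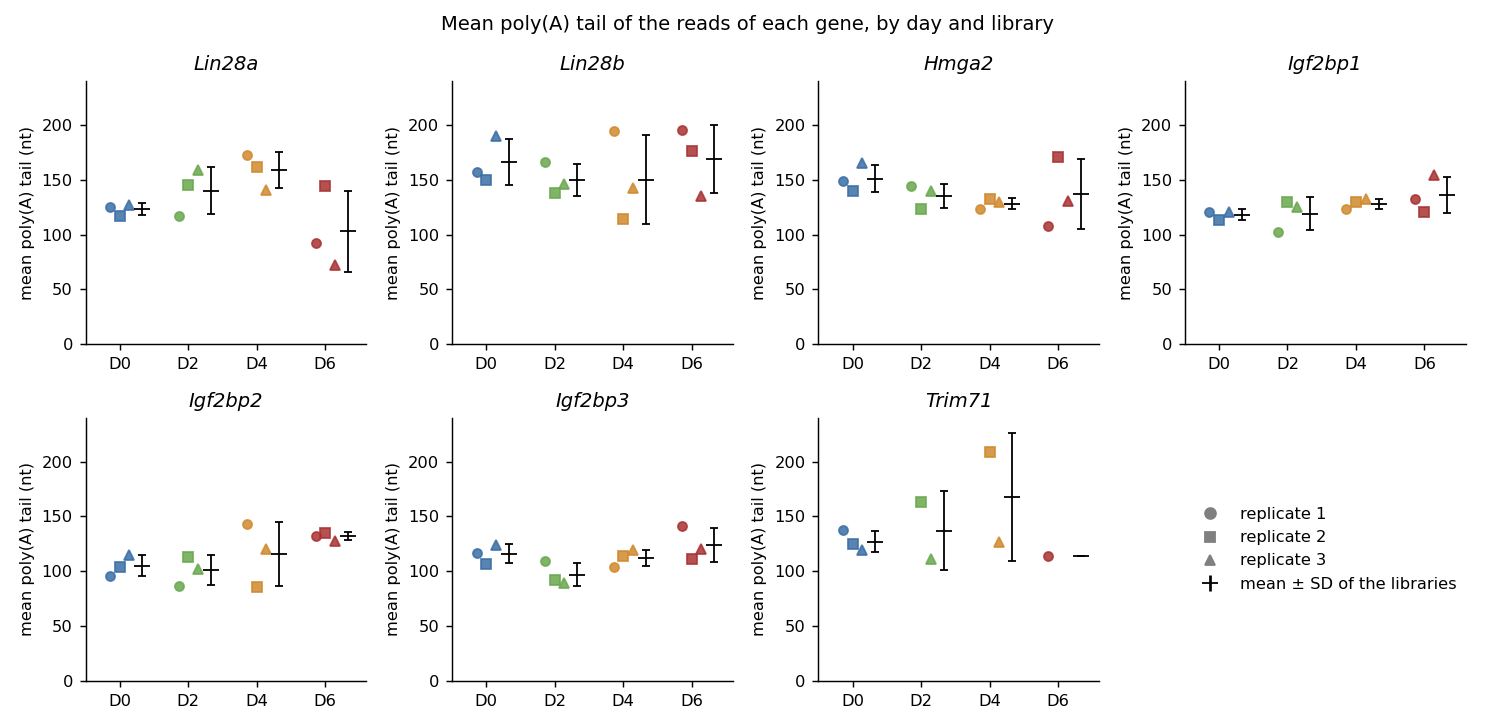
Mean poly(A) tail length in nt of the reads of each gene in every library, with the mean ± SD of the libraries of a day that had reads. Igf2bp2 lies between 128 and 135 nt at D6 against 95.6 to 115 nt at D0, and late values of Lin28a and Trim71 rest on few reads.

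The other genes of the pathway were taken from lists of 21 genes of let-7 processing and microRNA function, 27 let-7 targets, 6 mRNAs bound by IGF2BP proteins and 7 relatives of the 7 genes. Of the processing list 19 genes were tested at D6, of which 7 were called higher, 1 lower and 11 not called, beside 19.4% higher and 18.2% lower among all genes, with a median log2 fold change of 0.38 beside 0.02 over all genes. Dis3l2, the nuclease that degrades the uridylated let-7 precursor left by LIN28, rose from 9.94 to 26.5 scaled CPM (log2 fold change 1.45 ± 0.48, adjusted p = 0.0124). Msi1, a neural RNA-binding protein that works with LIN28, rose from 33.3 to 83.8 (1.34 ± 0.27, adjusted p = 5.53e-05). Ago1, an Argonaute that carries microRNAs, rose from 46.4 to 98.1 (1.11 ± 0.24, adjusted p = 1.29e-04), and Tnrc6c, an Argonaute partner, from 24.2 to 49.6 (1.07 ± 0.32, adjusted p = 0.00532). The 1 gene that fell was Xpo5, the exporter of microRNA precursors, by 0.59 ± 0.23 (log2, adjusted p = 0.0320). The core processing genes Drosha (-0.56 ± 0.26), Dgcr8 (-0.30 ± 0.36) and Dicer1 (-0.37 ± 0.26) were not called, nor was Tut4 (0.43 ± 0.28). Tut4 and Tut7 add the uridines, and Tut7 rose from 15.9 to 31.6 scaled CPM (0.94 ± 0.38, adjusted p = 0.0418).

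Let-7 targets outside the 7 genes moved in both directions. Of 24 tested at D6, 7 were called lower, 3 higher and 14 not called, beside 18.2% of all genes lower and 19.4% higher. Nr6a1, an orphan nuclear receptor of early embryos, went from 41.1 scaled CPM at D0 and 42.7 at D2 to 7.55 at D4, then 5.71 at D6 (log2 fold change at D6 -2.77 ± 0.59, adjusted p = 1.22e-04). Cdk6, a cell cycle kinase, fell by 2.56 ± 0.68 (adjusted p = 0.00197), and Cdc34, a ubiquitin-conjugating enzyme, by 1.51 ± 0.16 (adjusted p = 1.08e-11). Ccnd1, a cyclin that partners Cdk6, moved the other way, from 15.5 to 62.9 (2.07 ± 0.38, adjusted p = 9.48e-06). Onecut2, with 38 reads in all, rose as well, from 2.11 to 9.74 (1.82 ± 0.69, adjusted p = 0.0319).

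Among the mRNAs bound by IGF2BP proteins 4 were tested at D6, 2 rose and 2 were not called, where 19.4% of all genes rose and 18.2% fell. Gap43, a protein of growing axons, rose from 63.6 to 392 scaled CPM (2.61 ± 0.19, adjusted p = 2.58e-18), and Actb rose by 0.30 ± 0.11 (adjusted p = 0.0335), beside the 0.24 by which the choice of scaling moves the median gene. Of the relatives 6 were tested, 3 fell and 2 rose, against the same shares of all genes. Hmga1, the paralog of Hmga2, fell from 562 to 134 (-2.15 ± 0.16, adjusted p = 1.35e-17), beside -1.41 for Hmga2, and the difference was not tested. Ybx3 (-1.77 ± 0.20, adjusted p = 3.53e-11) and Ybx1 (-0.65 ± 0.10, adjusted p = 1.02e-07), which share the cold shock domain with LIN28, fell as well. Trim2, a neuronal relative of Trim71, rose by 0.81 ± 0.29 (adjusted p = 0.0213).

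The genes whose levels followed each of the 7 most closely over the 12 libraries were sought among about 6171 genes with a mean of at least 20 scaled CPM, by Pearson correlation of log2 levels. The days and the depth of D2 are shared by all points, and the values are a description. Lin28a was closest to Psph, an enzyme of serine synthesis (r = 0.992), Pes1, a ribosome assembly factor (0.987), and Nadk2 (0.973). Hmga2 was closest to Fbl, the nucleolar fibrillarin (0.962), L3mbtl2 (0.961) and Slc35f2 (0.960). Igf2bp1 was closest to the translation factor Eef1a1 (0.960), to reads assigned to Rps2-ps10 (0.959), which cannot be told from those of Rps2 with certainty, and to Dctpp1 (0.954). Igf2bp2 was closest to Eif2s2 (0.957), Pls3 (0.953) and Mybbp1a (0.940), and Trim71 to Nup93 (0.947), E2f4 (0.938) and Cep85 (0.909). Lin28b was closest to Lig1, a DNA ligase of replication (0.923), to Polg (0.906) and to Aldh7a1 (0.90). Igf2bp3 had looser neighbours, Tpst1 (0.852), Zbtb8os (0.851) and Ctps (0.832). Among the 7 genes themselves, Lin28a was closest to Hmga2 (0.92) and Igf2bp1 (0.89), and Igf2bp3 was within -0.25 and 0.19 of all others.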

How the data were processed

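Poly(A) RNA of 12 P19 libraries (3 each at D0, D2, D4 and D6) was read by nanopore direct RNA sequencing. The authors aligned reads to mm10 transcripts with minimap2 2.20 and deposited 1 line per read with its transcript, poly(A) length in nt, quality tag, a mapping quality score and a barcode confidence, which is a fraction. A deposited table of the authors' own fold changes and p-values was not used. Libraries were taken from the labels.

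Reads with the tag PASS, the class mRNA and an assigned barcode were tallied per gene, which gave 120326 to 613756 reads per library. Genes with at least 30 reads were tested with voom in limma 3.58.1 (R 4.3.3), with TMM scaling (trims of 30% and 5%), a pseudocount of 0.5 reads and Benjamini-Hochberg adjustment. Mean tails were tested in limma weighted by reads, for genes with at least 5 reads in each library compared. Exact permutation tests of 3 against 3 libraries were two-sided and could not go below 0.1. Intervals of pooled reads and shares are exact at 95% and cover counting error only, and that of a log2 fold change comes from its SE by the normal approximation. The tests were checked on simulated data. 3′ UTRs came from GENCODE vM21, while the authors used vM17, and 97.8% of the transcripts with reads matched by versioned identifier. The genes, the lists and the rule for named genes (all 7 genes, the 3 closest by correlation, and called list genes by size of change) were chosen with earlier results of these data known. Alternatives were total-read scaling, other filters on genes and reads, limma-trend, thinning, other tail measures, a replicate block and leaving out each library.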

Additional observations from a re-analysis of the deposited data

Results flagged for a closer look

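Reads that passed the quality tag but had no assigned barcode, 2.91% of all such mRNA reads, entered no comparison, and 6 of the 7 genes had more than 3 of them. There were 14 for Lin28a, 7 for Lin28b, 7 for Hmga2, 16 for Igf2bp1, 12 for Igf2bp2 and 6 for Igf2bp3, while Trim71 had 3. Each run held 1 day, so these reads were placed by the day of the assigned reads of their run, though not by replicate. The names of 3 D0 runs carry D2 and those of 2 D6 runs carry no day, so the placing rests on the library labels of the assigned reads. Of the Lin28a reads 12 came from runs of D0, 1 from D2, 1 from D4 and 0 from D6, that is 254, 60.9, 34.9 and 0.0 per 1000000 unassigned reads. Igf2bp1 had 8, 3, 3 and 2, or 169, 183, 105 and 55.8 on that scale.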

How the results depend on the processing

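At D6 the number of the 7 genes called was 6 under every alternative other than a mean of at least 20 reads (3, with 3 tested), thinning to the smallest library (3, with 6 tested) and a mapping quality of at least 10 (4, with 6 tested). At D2 (2 in the report) it was 1 with total-read scaling and 1 when thinned. At D4 (5) it was 3 at a mean of at least 20 reads, 3 at a mapping quality of at least 10 and 2 when thinned. It was 4 with total-read scaling, a filter of 1 read, limma-trend and a barcode confidence of at least 0.9. The replicate block and a count of all nuclear non-repeat transcripts gave 4 as well. Between D2 and D4 (1) it was 2 with all quality tags and 0 when thinned, and between D4 and D6 (1) it was 0 with total-read scaling, with a filter of 1 read, at a mapping quality of at least 10 and at a barcode confidence of at least 0.9. Hmga2 was not tested at that mapping quality, nor Trim71 when thinned.

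Genes called at D2 (1005) were 1615 with a filter of 1 read, 557 at a mean of 20 reads, 633 at a mapping quality of 10 and 319 when thinned. At D4 (2356) they were 1133 at a mean of 20 reads and 685 when thinned, and at D6 (3499) 1507, 1195 and, at a mapping quality of 10, 2201. Between D2 and D4 (282) they were 436 with limma-trend, 433 with all tags and 130 when thinned, and between D4 and D6 (778) 500 at a mean of 20 reads, 381 with limma-trend, 394 at a mapping quality of 10 and 245 when thinned. For mean tails without weights they were 0 at D2 (98), 0 at D4 (119) and 3 at D6 (350), where the median tail gave 213, the log2 scale 227 and a mapping quality of 10 gave 198.

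Leaving out 1 library at a time gave 646 to 1072 genes at D2, 1824 to 2378 at D4, 2809 to 3546 at D6, 159 to 305 between D2 and D4 and 476 to 805 between D4 and D6, and 1 to 2, 4 to 5, 6 to 6, 1 to 2 and 0 to 1 of the 7 genes. For tails it gave 64 to 105, 101 to 124 and 202 to 345 genes, and 0 of the 7.

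The sign turned at a mapping quality of 10 for Igf2bp2 at D2 (0.06), at D4 (0.16) and between D2 and D4 (0.10, and 0.08 when thinned). For Igf2bp3 it turned at D2 at a barcode confidence of 0.9 (-0.04) and without 1 library at a time (-0.07, without D2 replicate 1, to 0.31), at D6 with total-read scaling (0.08), and between D2 and D4 at a mapping quality of 10 (-0.02) and when thinned (-0.03). Lin28b at D4 ran from -0.67 to 0.02, the latter without D4 replicate 2. None of these was called by limma apart from Igf2bp2 at D4 as reported above. Tail changes that turned were those of Igf2bp2 at D2 (0.0378 on the log2 scale, -7.80 to 4.63 nt without 1 library), Igf2bp3 at D4 (0.0482 on the log2 scale, -6.77 to 2.69 nt), Hmga2 at D6 (-31.5 to 4.16 nt), Igf2bp1 at D2 (-3.23 to 10.8 nt) and Igf2bp2 at D4 (-0.822 to 22.5 nt). The causes were not tested.

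Same-numbered libraries of different days had correlations of deviations between -0.061 and 0.084 over 18 pairs. Differently numbered libraries had -0.122 to 0.106 over 36 pairs. No pairing by number was seen, and a weak pairing would not show in these values. With the replicate block 1037, 2056, 3129, 334 and 631 genes and 2, 4, 6, 1 and 1 of the 7 genes were called, and 107, 136 and 383 genes for tails. The block took the call from Igf2bp2 at D4 (limma adjusted p = 0.102). Depth limits Lin28a, Lin28b and Trim71 most, with 7, 12 and 2 reads at D6.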
